A study of Mus musculus with 12 samples.

Results

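The livers labelled as 6-month-old wild type and 6-month-old Iqgap2 knockout were compared by their transcript profiles, with 3 arrays per label and 1 male mouse per array, 6 of the 12 arrays of the study. All mice were kept on a 129J background and fed a regular diet, and the knockout was constitutive and carried by the whole animal. The wild-type label of 6 months (WT 6 months) and the knockout label of 6 months (KO 6 months) both name normal liver as the tissue. The other arrays carry the labels WT 24 months, for normal liver of 24-month-old wild types, and KO 24 months tumor, for hepatocellular carcinoma (HCC) of 24-month-old knockouts. The arrays were chosen by these labels alone, and all 18194 genes that a probe set of the Affymetrix mouse array names singly were tested. Values are log2 intensities after RMA, so that a difference of 1 is a doubling of the signal. They are listed for replicates 1, 2 and 3, those labelled WT 6 months first, and differences are labelled WT 6 months minus labelled KO 6 months.

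The liver carries out its metabolism in zones. Hepatocytes around the portal vein make urea and glucose and break down amino acids, whereas those around the central vein, where Wnt signals from endothelial cells keep beta-catenin active, make glutamine and take up ammonium. Beta-catenin is also a frequent driver of liver tumors, and alpha-fetoprotein is made by fetal hepatocytes and by many HCC but little by the adult liver. IQGAP2 is a scaffold protein that is abundant in hepatocytes and binds, among others, Rac1, Cdc42 and beta-catenin.

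Iqgap2 and Afp did not follow the labels. Iqgap2, the deleted gene, had log2 intensities of 8.38, 8.24 and 8.33 under the label WT 6 months and 8.12, 8.68 and 8.07 under KO 6 months. The values were 12.28, 12.30 and 11.92 in those labelled WT 24 months and 12.15, 12.05 and 12.15 in those labelled KO 24 months tumor. Both 6-month labels were thus at the low level, with overlapping arrays and a difference of 0.03 (SE 0.16, adjusted p = 0.931). On the other probe set of Iqgap2 the means were 7.71 under WT 6 months and 7.36 under KO 6 months. They differed by 0.35 (SE 0.13, adjusted p = 0.103), and the means were 8.81 under WT 24 months and 8.82 under KO 24 months tumor. Afp, which encodes alpha-fetoprotein, read 12.04, 13.05 and 13.27 under the label WT 6 months, 6.68, 6.76 and 6.79 under KO 6 months and 6.20, 7.62 and 5.85 in those labelled WT 24 months and 6.11, 6.25 and 6.27 in those labelled KO 24 months tumor. The 3 arrays labelled WT 6 months were above all 9 others, whatever the label of those. Of the 5 probe sets of Afp, 3 differed between the labels of 6 months, by 7.50, 6.04 and 6.68, and the other 2 were dim in all groups and differed by -0.11 and 0.12.

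The comparison is given with both of the following readings of its labels. Taken as deposited, the comparison is one of genotype, wild type against knockout at 6 months of age. If WT 6 months and KO 24 months tumor were exchanged as labels, it is one of knockout tumors at 24 months against knockout liver at 6 months, with the same genotype on both sides, and age and tumor cannot be told apart. With that exchange Iqgap2 would be low in all 6 arrays of knockouts and high in all 6 of wild types, and Afp high in the tumors alone. The deleted exons are not given in the sources used here, and a probe set outside the deleted stretch would check no label. The groups are called by their deposited labels throughout, and each difference is to be read under both.

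**Figure D1:**
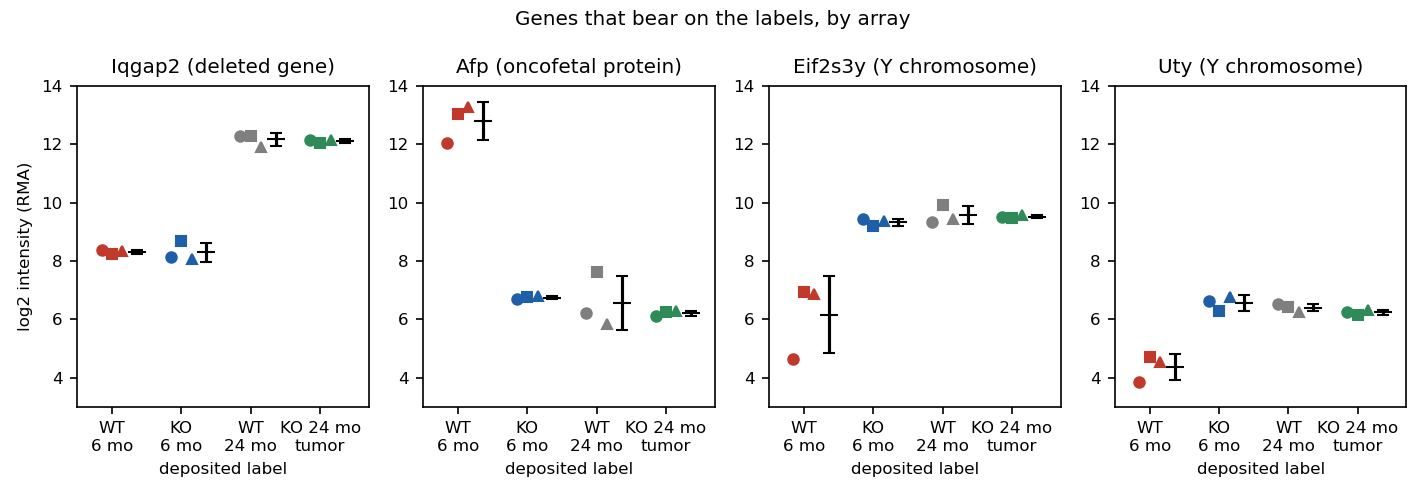
Log2 intensity (vertical axis) of Iqgap2, Afp and the Y chromosome genes Eif2s3y and Uty per array, the labels being set out along the horizontal axis, with circles, squares and triangles for replicates 1, 2 and 3 and bars for the mean and SD. Iqgap2 is low under both labels of 6 months, and the arrays labelled WT 6 months stand apart from the other 9 in Afp (up to 13.27) and in both Y chromosome genes (Eif2s3y down to 4.63).

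All mice are labelled male, and the Y chromosome genes were dimmer in the arrays labelled WT 6 months. Eif2s3y, a translation factor gene of the Y chromosome, read 4.63, 6.94 and 6.88 against 9.43, 9.20 and 9.37, a difference of -3.18 (adjusted p = 9.61e-04, SE 0.47). Uty differed by -2.20 (adjusted p = 3.09e-05, SE 0.20) and Kdm5d by -2.17 (adjusted p = 2.11e-04, SE 0.26). Both encode histone demethylases, and in all 3 genes the groups did not overlap and the 6 arrays of the other labels were on the side of KO 6 months. Xist, the RNA of the inactive X chromosome, read 5.66, 5.59 and 6.77 against 5.20, 5.43 and 5.73 and was not called (0.55, adjusted p = 0.22, SE 0.29).

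Calls needed a fold of at least 3 together with a limma adjusted p of at most 0.05, with the spread taken from all 12 arrays. Between the labels of 6 months 258 genes were higher (1.42% of those tested) and 218 lower (1.2%) under the label WT 6 months. By the adjusted p alone 1463 genes (8.04%) were higher and 1637 (9%) lower, and these shares are the background for the counts of list members below, which use an adjusted p under 0.05 without a fold. The lists were chosen with earlier results of these data known, so that a list's distance from the background is no independent evidence. The arrays did not overlap for 6924 genes (38.1%) and for 473 of the 476 that were called. The median difference over all genes was -0.05. Where the mean of a group was below 6, near the array medians of 5.41 to 5.45, a difference is given without a fold, because signal that dim is not told apart from background. Beside some counts the number by SAM is given, a test that relabels the arrays and that the study's methods use, or the number with the arrays centered on the mean of the housekeeping genes Actb, Gapdh, Gusb and Hprt. SAM passed more genes, 2330 higher and 2997 lower, and its counts are not printed beside every list. The 4 housekeeping genes themselves differed between the labels by -0.78 to 0.48, with 1 past the adjusted p as higher, so that centering on them is no fixed reference. Selection by the difference between the labels of 6 months already fixes part of the positions that follow, which were not counted over all genes. In 401 of the 476 the 3 arrays labelled WT 6 months lay outside the range of all 9 others, and for 419 the means of both 24-month labels were nearer to KO 6 months. For 47 only the mean of KO 24 months tumor was, and that of WT 24 months was nearer to WT 6 months. Among these are Acacb, Cdkn1a, Hsd3b5, Icam1, Igfbp1, Ighm, Lcn2, Nr1d1, Orm2, Socs3 and Usp18, which are named below. RNA integrity, as the difference between the 3' and 5' probe sets, was 0.19 ± 0.13 (SD, n = 3) against 0.18 ± 0.05 for Gapdh and 1.39 ± 0.34 against 1.12 ± 0.09 for actin (exact permutation tests, two-sided, p = 0.8 and 0.4, of which 0.1 is the smallest possible).

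**Figure D2:**
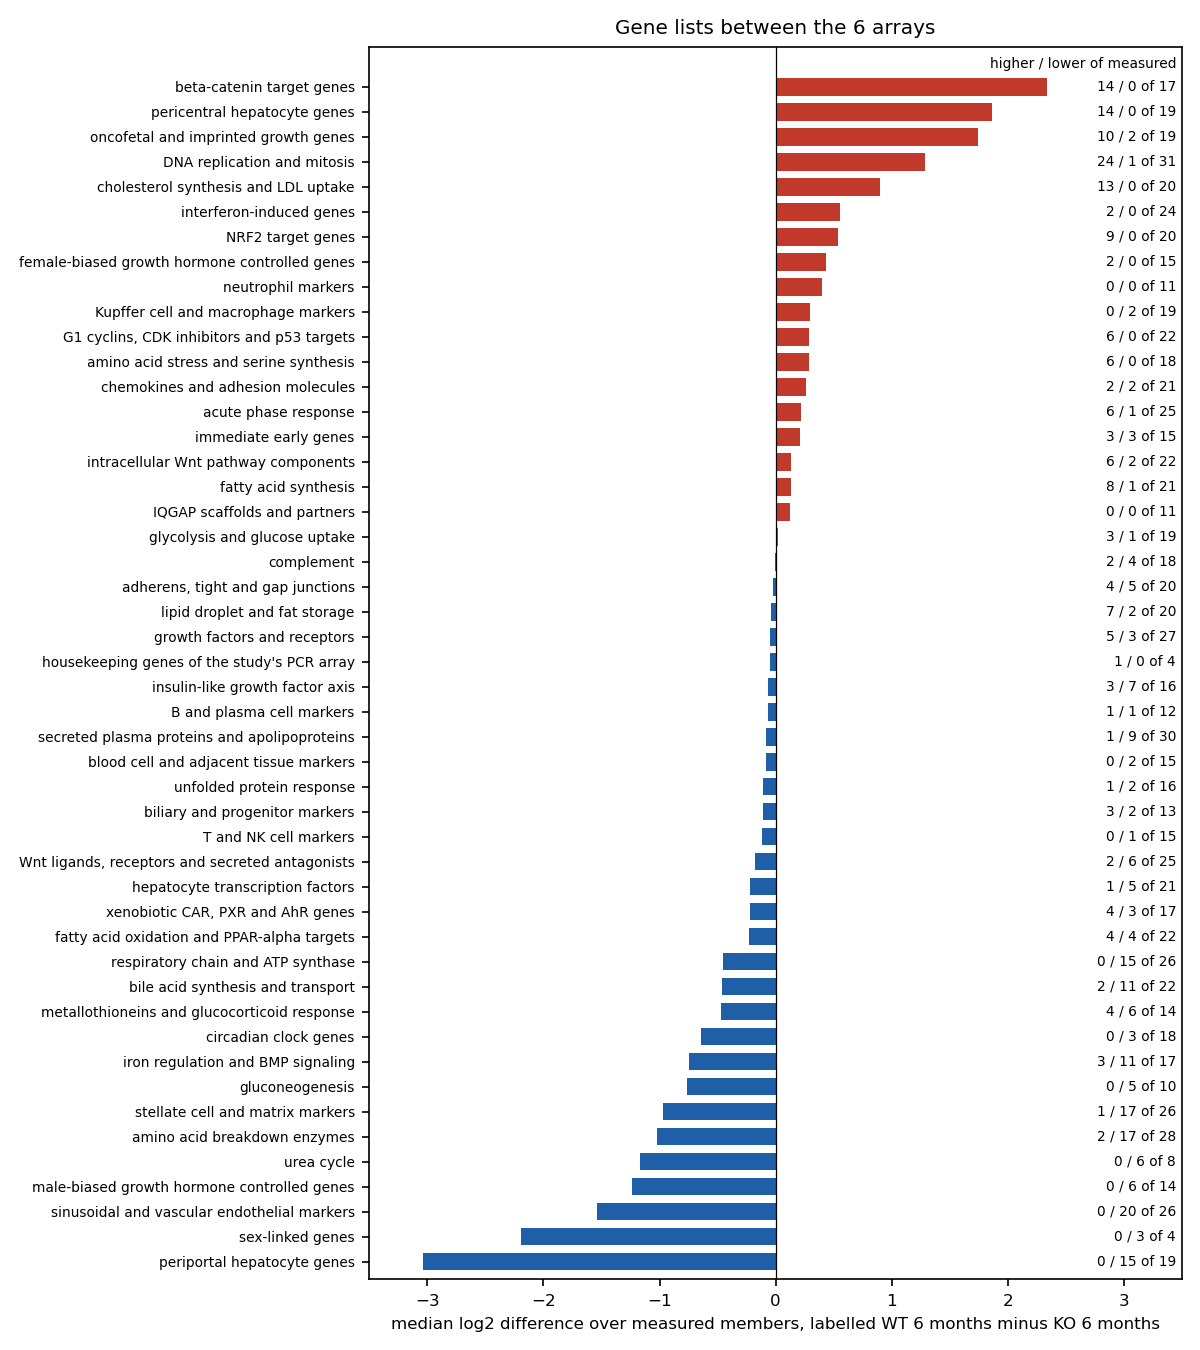
Median log2 difference, labelled WT 6 months minus labelled KO 6 months, (horizontal axis) over the measured members of 48 gene lists (vertical axis), with the numbers of members higher and lower at an adjusted p under 0.05. Beta-catenin targets have the highest median, 2.34, and periportal hepatocyte genes the lowest, -3.04, whereas the median over all genes was -0.05. The lists were chosen with earlier results of these data known.

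Target genes of beta-catenin were higher under the label WT 6 months. Of 17 measured, 14 were higher and 0 lower (0 by limma's p of 0.05 before adjustment, 0 by SAM), with a median difference of 2.34, and 11 passed the fold of 3. Nkd1, which binds Dishevelled and dampens Wnt signaling, read 10.83, 10.66 and 11.29 against 5.95, 5.72 and 5.67 and differed by 5.15 (adjusted p = 3.43e-08, SE 0.18). All 4 of its probe sets were higher, by 1.19 to 5.15. Axin2, the scaffold of the beta-catenin destruction complex that Wnt induces, had 10.56, 10.29 and 10.04 against 7.55, 7.36 and 6.55 and was 8.83-fold higher, a difference of 3.14 (adjusted p = 8.08e-06, SE 0.23). Lgr5, the receptor for R-spondins on stem cells and on hepatocytes beside the central vein, was at 10.65, 10.68 and 10.55 against 7.62, 6.76 and 6.59, a difference of 3.63 (adjusted p = 4.83e-06, SE 0.25). None of these 3 genes had overlapping arrays, and the arrays of both other labels were on the side of KO 6 months.

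Sp5 and Tbx3, transcription factors that Wnt induces, differed by 3.42 and 2.99 (adjusted p = 1.29e-05 and 4.04e-05). Tnfrsf19, a receptor of the tumor necrosis factor family, differed by 3.56 (adjusted p = 1.39e-05, SE 0.29) and Wif1, a secreted protein that binds Wnts, by 3.20 (adjusted p = 0.0013, SE 0.50). The ubiquitin ligases Rnf43 and Znrf3, which remove Frizzled receptors, and Notum, which takes the lipid off Wnts, were higher by 2.24, 2.22 and 1.54 (adjusted p = 2.78e-05, 5.40e-05 and 0.00345). Cyclin D1 (Ccnd1) read 11.14, 11.12 and 10.66 against 8.10, 9.59 and 8.22 and differed by 2.34 (adjusted p = 0.00238, SE 0.40). Cd44, a hyaluronan receptor, differed by 3.29 (adjusted p = 0.00133, SE 0.51) and Lef1, a transcription factor that beta-catenin binds, by 1.02 (adjusted p = 1.09e-04, SE 0.11). Myc read 8.42, 8.15 and 8.37 against 6.80, 7.02 and 6.54 and its difference was 1.53 (adjusted p = 0.0163, SE 0.37), which was lost without KO 6 months replicate 3 (adjusted p = 0.0646). Apcdd1, Dkk1 and Ascl2 had overlapping arrays and differences of 0.35, -0.06 and -0.11. The study names several of these genes from another comparison of the same arrays, so that the count is no independent evidence of its direction.

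The promoters of 3 of these genes with large differences are shown, since the TCF/LEF factors that carry beta-catenin to DNA bind the letters CTTTGAT. The 300 bases run from 250 before to 50 after the gene start in RefSeq (GRCm38.p6), in lower case with each match of CTTTGAT, or of ATCAAAG on the other strand, in capitals. Nkd1 lies at chr8:88527383-88527682 on the plus strand, both starts of Tnfrsf19 at chr14:61046806-61047105 and chr14:61037938-61038237 on the minus strand, and Sp5 at chr2:70474673-70474972 on the plus strand.
Nkd1: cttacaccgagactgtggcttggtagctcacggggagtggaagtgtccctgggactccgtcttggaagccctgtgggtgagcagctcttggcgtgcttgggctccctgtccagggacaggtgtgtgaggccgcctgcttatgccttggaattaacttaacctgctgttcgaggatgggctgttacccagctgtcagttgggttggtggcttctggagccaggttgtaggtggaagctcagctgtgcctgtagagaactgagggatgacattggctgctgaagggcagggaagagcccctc
Tnfrsf19, first start: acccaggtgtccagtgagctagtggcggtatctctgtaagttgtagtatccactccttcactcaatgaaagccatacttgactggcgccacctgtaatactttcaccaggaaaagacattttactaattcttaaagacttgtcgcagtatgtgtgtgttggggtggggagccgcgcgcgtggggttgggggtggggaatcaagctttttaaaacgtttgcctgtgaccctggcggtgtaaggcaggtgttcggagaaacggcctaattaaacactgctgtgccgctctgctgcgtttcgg
Tnfrsf19, second start: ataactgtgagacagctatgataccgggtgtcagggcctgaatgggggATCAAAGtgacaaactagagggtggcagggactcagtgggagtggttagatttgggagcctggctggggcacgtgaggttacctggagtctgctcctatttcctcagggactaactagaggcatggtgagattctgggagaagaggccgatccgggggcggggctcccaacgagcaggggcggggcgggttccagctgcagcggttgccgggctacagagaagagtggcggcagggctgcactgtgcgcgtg
Sp5: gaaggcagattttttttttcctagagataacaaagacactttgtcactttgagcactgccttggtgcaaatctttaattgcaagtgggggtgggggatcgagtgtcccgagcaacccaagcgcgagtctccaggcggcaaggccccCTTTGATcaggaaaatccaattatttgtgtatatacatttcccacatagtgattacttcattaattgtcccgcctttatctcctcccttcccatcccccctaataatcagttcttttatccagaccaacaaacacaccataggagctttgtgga
Sp5 had 1 match, 104 bases before the start, the second start of Tnfrsf19 had 1 at 202 bases before it, and the others had none. Of the 17 beta-catenin targets, 10, Lgr5 not among them, had a promoter in the table and were searched, with 15 promoters, of which 2 (13.3%) held a match. The share was 2.93% of the promoters of genes tested, 3.73% of all 32851 promoters, 3.31% of those of genes called higher and 4.88% of those of genes called lower. A match is a description of letters and not of binding.

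The other parts of the Wnt pathway had members on both sides. Of 25 ligands, receptors and secreted antagonists, 2 were higher, near the 8.04% of all genes (4 by SAM and 1 with dim genes left out or without replicate 2 of KO 6 months), and 6 lower (2 with the arrays centered on the housekeeping genes). The lower ones included Rspo3 and Wnt2, signals that endothelial cells of the central vein send to hepatocytes. Rspo3 read 5.36, 4.41 and 5.01 against 7.09, 6.59 and 6.81 and differed by -1.90 (adjusted p = 2.10e-04, SE 0.22), and Wnt2 read 5.39, 4.98 and 4.76 against 6.57, 5.77 and 6.41 and differed by -1.20 (adjusted p = 0.0105, SE 0.27). In neither did the arrays overlap. Wnt5a, a ligand that acts mostly outside beta-catenin, was higher by 1.35 (adjusted p = 4.20e-04, SE 0.18), and the receptors Fzd4 and Fzd6 differed by -0.02 and -0.04 with overlapping arrays.

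Among 22 intracellular components 6 were higher (3 without replicate 3 of WT 6 months or without replicate 2 or 3 of KO 6 months) and 2 lower (1 with the arrays centered on the housekeeping genes). Nlk, a kinase that phosphorylates TCF/LEF factors, read 11.52, 11.91 and 12.31 against 8.90, 8.93 and 8.76 and was 8.26-fold higher (3.05, adjusted p = 1.54e-06, SE 0.18). Its 3 probe sets differed by 3.05 to 3.99. Ctnnbip1, an inhibitor that blocks beta-catenin from TCF, read 6.10, 6.21 and 6.15 against 8.01, 8.33 and 8.09 and was lower, with a difference of -1.99 (adjusted p = 4.11e-06, SE 0.13). Ctnnb1, beta-catenin itself, differed by 0.40 (adjusted p = 0.0229, SE 0.11) on the probe set with the most signal, and by 0.23 and 0.22 (adjusted p = 0.495 and 0.382) on the other 2. Apc and Axin1, of the destruction complex, differed by 0.28 and -0.06 with overlapping arrays. Ctnnb1 did not pass without replicate 3 of WT 6 months, or replicate 1, 2 or 3 of KO 6 months (adjusted p = 0.0607 to 0.0812).

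Genes that mark hepatocytes at the central vein were higher under the label WT 6 months. Of 19 measured, 14 were higher and 0 lower (0 by limma's p of 0.05 before adjustment, 0 by SAM), with a median of 1.86, and the same count was found without each array in turn. In tissue as a whole, fewer cells of one kind and less RNA per cell cannot be told apart. Glul, glutamine synthetase, read 13.63, 14.03 and 13.96 against 12.23, 11.82 and 11.99, 3.64-fold higher (1.86, adjusted p = 5.16e-05, SE 0.18). Rhbg, an ammonium transporter, read 12.72, 12.66 and 13.03 against 8.21, 7.39 and 7.64 and differed by 5.06 (adjusted p = 2.33e-07, SE 0.23). Slc1a2, which takes up glutamate, had 12.24, 12.97 and 12.88 against 8.04, 8.42 and 8.15 and a difference of 4.49 (adjusted p = 3.44e-05, SE 0.41). The arrays of these 3 genes were far apart, and the lowest value of each under the label WT 6 months was above the highest under KO 6 months.

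Slc13a3 (a dicarboxylate transporter), Slc1a4 (a neutral amino acid transporter) and the carbonic anhydrases Car4 and Car2 were higher by 3.77, 3.26, 3.57 and 3.43 (adjusted p = 1.84e-04, 3.98e-06, 8.30e-07 and 1.86e-06). Cyp1a2 and Oat, an aminotransferase that degrades ornithine, differed by less, 0.83 (adjusted p = 0.00109, SE 0.13) and 0.57 (adjusted p = 0.00525, SE 0.11). Cyp2e1, a defining cytochrome P450 of this zone, read 14.62, 14.65 and 14.64 against 14.62, 14.51 and 14.60, near the upper end of the scale, where a difference may not be measured (0.06, adjusted p = 0.684, SE 0.08). Cyp2c37, Cyp2c50, Cyp27a1 and Aldh1a1 overlapped and differed by 0.32, 0.22, 0.26 and 0.25.

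Genes of periportal hepatocytes ran in the opposite direction. Of 19, 15 were lower and 0 higher (1 by limma's p of 0.05 before adjustment, 1 by SAM, and 1 in a fit of the 6 arrays alone or with dim genes left out or without replicate 1 or 3 of WT 24 months), with a median of -3.04. Cyp2f2 had 4.68, 7.94 and 5.71 against 14.06, 14.04 and 13.98 and a difference of -7.92 (adjusted p = 8.08e-06, SE 0.59), the largest fall of all genes by the probe set of highest mean that stands for each. Hal, which begins the breakdown of histidine, had 4.66, 5.72 and 4.77 against 12, 12.09 and 11.85 (-6.94, adjusted p = 1.30e-07, SE 0.28). Etnppl, a lyase of phosphoethanolamine, had 5.09, 5.42 and 5.08 against 12.11, 12.31 and 12.41 and was lower (-7.08, adjusted p = 2.17e-07, SE 0.31). The arrays labelled WT 6 months were far below those of KO 6 months in all 3 genes, and in Cyp2f2 replicate 2 was the least so.

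Hsd17b6, a steroid dehydrogenase, and Sfxn1, a serine carrier of mitochondria, differed by -5.96 (adjusted p = 3.27e-05, SE 0.54) and -5.72 (adjusted p = 3.98e-07, SE 0.28). Gldc, of the glycine cleavage system, read 6.65, 6.30 and 5.25 against 11.54, 11.36 and 11.13 and differed by -5.27 (adjusted p = 1.10e-05, SE 0.41). Cdh1, E-cadherin, which in the liver is found around the portal vein, read 5.72, 5.54 and 4.57 against 9.03, 9.27 and 8.06 and was lower (-3.51, adjusted p = 1.51e-04, SE 0.39). Ass1, Pigr, Apoa4 and Ifitm3 were the members that did not pass, with -0.90, -0.88, 0.91 and 0.42.

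**Figure D3:**
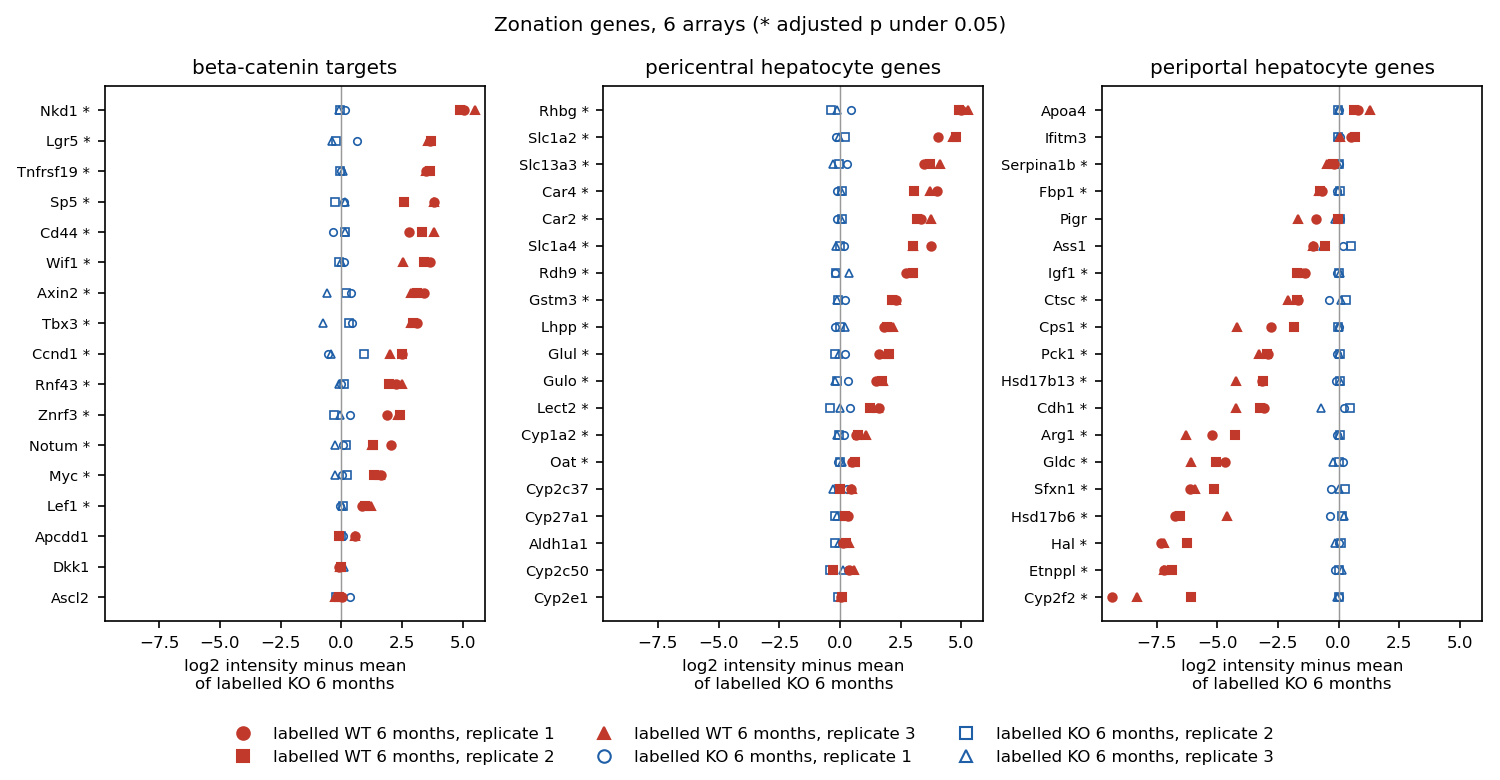
Log2 intensity of each of the 6 arrays minus the mean of the arrays labelled KO 6 months (horizontal axes) for the measured beta-catenin targets, pericentral and periportal hepatocyte genes (vertical axes), with filled red symbols for WT 6 months, open blue ones for KO 6 months and an asterisk at an adjusted p under 0.05. In the first pair of panels 14 genes each lie to the right of the KO 6 months arrays, and in the last 15 lie to the left.

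The urea cycle was lower as well, in 6 of 8 genes and higher in 0 (0 by limma's p of 0.05 before adjustment, 0 by SAM), with a median of -1.17. Cps1, carbamoyl-phosphate synthetase and its first step, read 11.49, 12.45 and 10.10 against 14.28, 14.23 and 14.29 and differed by -2.92 (adjusted p = 7.33e-04, SE 0.42). Arg1, the arginase that releases urea, read 9.05, 10.01 and 7.98 against 14.18, 14.33 and 14.27, 38-fold lower (-5.25, adjusted p = 5.30e-06, SE 0.37). In both, replicate 3 labelled WT 6 months was the lowest and no arrays overlapped. Otc and Asl, which make citrulline and arginine, differed by -2.11 (adjusted p = 4.04e-05, SE 0.20) and -1.44 (adjusted p = 0.00169, SE 0.23), while Ass1 between them had 7.68, 8.17 and 7.70 against 8.91, 9.24 and 8.09 and -0.90 (adjusted p = 0.159, SE 0.40). Nags, which makes the activator of Cps1, differed by 0.24 (adjusted p = 0.348, SE 0.16). The lists of periportal genes, the urea cycle, amino acid breakdown and gluconeogenesis share members, among them Ass1, Hal and Got1. Their counts are thus not independent.

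Of 28 enzymes of amino acid breakdown 17 were lower and 2 higher, with a median of -1.02. The count of higher ones, Prodh and Gpt2, was 1 with averaged probe sets or without replicate 3 of WT 6 months and 0 without replicate 1 or 2 of WT 6 months or without replicate 1, 2 or 3 of KO 6 months. Amdhd1 and Ftcd, which follow Hal in histidine breakdown, were lower with differences of -6.04 (adjusted p = 8.61e-06, SE 0.45) and -2.80 (adjusted p = 3.47e-05, SE 0.26). Got1, aspartate aminotransferase, read 8.81, 9.51 and 7.04 against 13.03, 13.36 and 13.26 and differed by -4.76 (adjusted p = 1.05e-04, SE 0.51). Kynu and Kmo, of tryptophan breakdown, differed by -2.90 and -1.51 (adjusted p = 1.98e-05 and 2.55e-05) and Tdo2, its first enzyme, by -1.04 (adjusted p = 0.00451, SE 0.20). Tat, the first enzyme of tyrosine breakdown, was lower (-1.36, adjusted p = 0.00453, SE 0.26), while Hpd, Hgd and Fah, which follow it, had differences of -0.15, -0.09 and -0.25 and did not pass.

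In gluconeogenesis 5 of 10 genes were lower. Pck1, phosphoenolpyruvate carboxykinase, read 10.57, 10.55 and 10.20 against 13.40, 13.54 and 13.50 and was 8.23-fold lower (-3.04, adjusted p = 1.74e-07, SE 0.13). Slc37a4, which carries glucose-6-phosphate to the phosphatase, differed by -1.40 (adjusted p = 0.00194, SE 0.23) and Fbp1 by -0.75 (adjusted p = 1.09e-04, SE 0.08). G6pc, the phosphatase, overlapped, with 11.39, 11.10 and 10.36 against 12.46, 11.70 and 10.31 and a difference of -0.54 (adjusted p = 0.488, SE 0.47). Of 19 genes of glycolysis and glucose uptake 3 passed as higher, with Aldoc (1.22, adjusted p = 0.0107, SE 0.27) and Aldoa (1.10, adjusted p = 7.76e-04, SE 0.16) at the front. The glucose transporter of hepatocytes, Slc2a2, read 11.32, 11.38 and 12.07 against 12.82, 12.58 and 12.92, a difference of -1.19 (adjusted p = 0.0235, SE 0.31) that did not pass without some arrays (adjusted p = 0.0675 to 0.0818 without replicate 1 or 3 of KO 6 months, or replicate 1 or 2 of WT 6 months). The M form of pyruvate kinase, Pkm, read 8.0, 7.84 and 8.07 against 7.15, 6.96 and 6.68 and did not pass (1.04, adjusted p = 0.179, SE 0.49), though its arrays did not overlap. Its arrays labelled WT 24 months spread from 6.87 to 9.52.

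Genes of cholesterol synthesis were higher under the label WT 6 months, 13 of 20 against 0 lower (0 by limma's p of 0.05 before adjustment, 0 by SAM), with a median of 0.90. Hmgcs1, which makes HMG-CoA, read 14.04, 14.27 and 14 against 13.05, 11.90 and 12.60 and differed by 1.58 (adjusted p = 0.00751, SE 0.33). Sqle, which oxidizes squalene, read 12.09, 12.16 and 11.81 against 10.83, 9.82 and 10.53 and differed by 1.62 (adjusted p = 0.00204, SE 0.27), and Mvd, which makes isopentenyl diphosphate, read 10.24, 10.32 and 9.93 against 8.62, 7.57 and 8.02 and differed by 2.09 (adjusted p = 8.45e-04, SE 0.30). In these genes no arrays overlapped. Srebf2, the transcription factor that controls the pathway, differed by 0.64 (adjusted p = 0.0304, SE 0.18). Insig1, which holds that factor in the endoplasmic reticulum, overlapped and differed by 0.36 (adjusted p = 0.38, SE 0.25). Srebf2 did not pass without replicate 2 or 3 of WT 6 months, or replicate 2 or 3 of KO 6 months (adjusted p = 0.0514 to 0.119).

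Fatty acid synthesis had 8 of 21 genes higher and 1 lower (4 in a fit of the 6 arrays alone, 2 with averaged probe sets or with dim genes left out or without replicate 1 or 3 of WT 6 months or without replicate 1 of KO 6 months or without replicate 3 of WT 24 months and 3 without replicate 2 of WT 24 months), with a median of 0.13. Scd2, a desaturase that the adult liver makes little of, read 11.03, 12.30 and 11.78 against 6.38, 6.38 and 6.21 and was 41.7-fold higher (5.38, adjusted p = 3.43e-05, SE 0.49), whereas Scd1, the main desaturase of the liver, read 14.63, 14.74 and 14.70 against 14.07, 14.18 and 14.42, near the upper end of the scale, and did not pass (0.47, adjusted p = 0.129, SE 0.19). Fasn, fatty acid synthase, and Acaca, acetyl-CoA carboxylase 1, differed by 1.02 (adjusted p = 0.0211, SE 0.26) and 1.0 (adjusted p = 0.0021, SE 0.17). Acacb, the carboxylase at mitochondria, and Pnpla3, a lipase of droplets, were higher by 1.77 and 2.46 (adjusted p = 0.00202 and 6.63e-05). Acly and Srebf1 did not pass, with -0.01 and -0.48. Fasn did not pass without replicate 1, 2 or 3 of WT 6 months, or replicate 1, 2 or 3 of KO 6 months (adjusted p = 0.0503 to 0.0657).

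Of 20 genes of lipid droplets and fat storage 7 were higher, a count that rested on single arrays (3 without replicate 1 of WT 6 months or without replicate 2 of KO 6 months, 1 without replicate 2 of WT 6 months or without replicate 1 of KO 6 months and 2 without replicate 3 of KO 6 months). Pparg, the transcription factor of fat cells, kept its call and read 10.21, 9.50 and 9.73 against 7.37, 6.95 and 6.88 (2.75, adjusted p = 3.53e-05, SE 0.25). Lpl, lipoprotein lipase, read 13.03, 12.74 and 11.68 against 8.07, 10.88 and 10.29, with KO 6 months replicate 1 the lowest, and differed by 2.74 (adjusted p = 0.0222, SE 0.71) but did not pass when any of 3 arrays was left out (adjusted p = 0.0679 to 0.0736 without replicate 1 of KO 6 months, or replicate 1 or 2 of WT 6 months). Mfsd2a, which carries lysophospholipids, ran the other way with 4.66, 5.37 and 4.96 against 9.96, 10.88 and 10.26 and -5.37 (adjusted p = 9.04e-06, SE 0.41). Plin2, the coat protein of droplets in hepatocytes, differed by -0.39 (adjusted p = 0.323, SE 0.25).

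In fatty acid oxidation 4 of 22 genes were higher and 4 lower (7 by SAM and 2 with the arrays centered on the housekeeping genes). The higher ones included Vnn1, a pantetheinase, at 11.21, 10.82 and 10.34 against 7.23, 7.17 and 7.09 (3.63, adjusted p = 0.00181, SE 0.59), Pdk4, which shuts off pyruvate dehydrogenase (2.96, adjusted p = 0.00446, SE 0.57), and Fgf21, a hormone of the fasted liver, at 9.50, 9.52 and 8.96 against 6.99, 5.99 and 6.53 (2.83, adjusted p = 3.58e-04, SE 0.36). The lower ones were enzymes of beta-oxidation, Cpt2 (-0.91, adjusted p = 2.10e-04, SE 0.11), Hadhb (-0.81, adjusted p = 4.32e-04, SE 0.11), Hadha (-0.65, adjusted p = 0.00382, SE 0.12) and Acadm (-0.38, adjusted p = 0.0415, SE 0.11). Cpt1a, the entry of fatty acids into mitochondria, and Ppara overlapped and differed by -0.21 and -0.25. Acadm did not pass without replicate 1 or 2 of WT 6 months, or replicate 1, 2 or 3 of KO 6 months, or replicate 1, 2 or 3 of KO 24 months tumor (adjusted p = 0.0526 to 0.125).

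Among 22 genes of bile acid synthesis and transport 2 were higher and 11 lower (6 without replicate 2 of WT 6 months and 7 without replicate 2 or 3 of KO 6 months). Abcc4, an export pump of the blood side that is low in normal liver, read 11.15, 11.32 and 12.44 against 5.96, 6.24 and 6.23 and was 45.1-fold higher (5.49, adjusted p = 2.47e-04, SE 0.67). Its arrays labelled WT 24 months were at 6.21, 9.76 and 7.88. Slc10a1, the uptake pump for bile acids, read 12.51, 11.17 and 11.98 against 13.33, 13.12 and 13.25 and was lower (-1.35, adjusted p = 0.00704, SE 0.28), as was Cyp8b1, which sets the share of cholic acid, at 9.82, 5.79 and 7.77 against 12.39, 11.16 and 10.43 (-3.54, adjusted p = 0.0108, SE 0.80). Cyp7a1, the rate-limiting enzyme of the synthesis, read 13.07, 12.72 and 13.33 against 10.81, 11.92 and 10.75 and did not pass (1.88, adjusted p = 0.0638, SE 0.63), although its arrays did not overlap. Nr1h4 and Nr0b2, the bile acid receptor and the repressor it induces, differed by -0.70 (adjusted p = 0.00716, SE 0.15) and -1.37 (adjusted p = 0.0303, SE 0.38). Abcb11, the pump into bile, differed by -0.39 (adjusted p = 0.312, SE 0.24). Nr0b2 did not pass without replicate 2 or 3 of WT 6 months, or replicate 1, 2 or 3 of KO 6 months (adjusted p = 0.0624 to 0.0977).

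Targets of NRF2, the transcription factor of the antioxidant response, were higher in 9 of 20 genes and lower in 0 (0 by limma's p of 0.05 before adjustment, 1 by SAM), with a median of 0.54. Nqo1, a quinone reductase, read 9.66, 9.56 and 9.98 against 6.74, 6.87 and 6.86 and was 7.52-fold higher (2.91, adjusted p = 3.14e-04, SE 0.37). Srxn1, which restores peroxiredoxins, and Cbr3, a carbonyl reductase, differed by 2.46 (adjusted p = 1.90e-05, SE 0.21) and 2.39 (adjusted p = 0.00373, SE 0.44), and Gstm2, a glutathione transferase, by 3.45 (adjusted p = 1.56e-06, SE 0.20). Gclc and Gclm, of glutathione synthesis, overlapped between the labels and differed by -0.47 and 0.10. The letters TGACNNNGC that NRF2 binds were found on either strand in 5 of 21 promoters (23.8%) of 16 of these genes and in 13.9% of the promoters of genes tested and 12.4% of all promoters, which is a description of letters alone.

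Genes that the xenobiotic receptors control had no common direction, with 4 of 17 higher (2 without replicate 1 or 2 of KO 6 months) and 3 lower. Cyp2b10, the main target of CAR, read 5.57, 5.29 and 5.67 against 7.99, 7.88 and 8.22 and was lower (-2.52, adjusted p = 3.11e-06, SE 0.16), Cyp3a11, that of PXR, differed by -0.24 (adjusted p = 0.128, SE 0.10), and Cyp1a1, that of AhR, by 1.03 (adjusted p = 0.0206, SE 0.26). Aldh1b1, a mitochondrial aldehyde dehydrogenase, was lower at 4.70, 5.07 and 4.37 against 9.66, 10.77 and 10.39 (-5.56, adjusted p = 2.52e-07, SE 0.26). In the response to amino acid stress 6 of 18 genes were higher (3 without replicate 3 of KO 6 months), with Atf3 (1.86, adjusted p = 0.0037, SE 0.34) and Slc7a5 (1.42, adjusted p = 7.40e-06, SE 0.10), a transporter of large amino acids, among them. Psat1, of serine synthesis, read 7.54, 6.85 and 4.63 against 3.90, 3.87 and 3.94, a difference of 2.44 (adjusted p = 0.0146, SE 0.58) that was not called without WT 6 months replicate 2 (adjusted p = 0.0575). Phgdh and Asns overlapped, at 0.10 and -0.98. The unfolded protein response had 1 higher and 2 lower of 16 (1 with the arrays centered on the housekeeping genes for the lower), and Hspa5, its chaperone, differed by 0.11 (adjusted p = 0.72, SE 0.17). Cyp1a1 did not pass without replicate 1 or 2 of WT 6 months, or replicate 1 or 2 of KO 6 months (adjusted p = 0.0616 to 0.0753).

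Oncofetal and imprinted genes were higher in 10 of 19 and lower in 2 (4 in a fit of the 6 arrays alone and 1 with dim genes left out or with the arrays centered on the housekeeping genes or without replicate 1 or 2 of WT 6 months or without replicate 2 or 3 of KO 6 months or without replicate 1, 2 or 3 of KO 24 months tumor for the lower). Beside Afp, the rise was large in Cpe, carboxypeptidase E, with 9.91, 11.39 and 11.44 against 4.20, 4.38 and 4.76 (6.47, adjusted p = 2.82e-04, SE 0.80), and in Sprr1a, a protein of stressed epithelium, with 8.16, 8.98 and 10.33 against 4.82, 4.78 and 4.81 (4.36, adjusted p = 3.06e-05, SE 0.39). The maternally expressed RNAs of the Dlk1-Dio3 locus on chromosome 12 were all higher. Meg3 read 13.78, 13.54 and 13.92 against 9.78, 9.81 and 9.58, 16.3-fold higher (4.03, adjusted p = 8.94e-06, SE 0.30), Rian read 10.32, 9.18 and 9.82 against 5.15, 5.16 and 5.35 (4.55, adjusted p = 3.11e-06, SE 0.29) and Mirg read 9.52, 8.99 and 9.47 against 6.18, 6.15 and 6.07 (3.19, adjusted p = 2.58e-06, SE 0.20). No array of these 3 RNAs overlapped, and all of their 17 probe sets were higher, by 1.57 or more. Dlk1, which is expressed from the paternal copy of the same locus, had 5.15, 5.0 and 5.08 against 5.10, 5.17 and 5.04 with overlapping arrays (-0.03, adjusted p = 0.93, SE 0.17).

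Igf2, a paternally expressed growth factor, read 8.70, 7.87 and 8.86 against 6.13, 6.66 and 6.49 on its brighter probe set (2.05, adjusted p = 4.10e-04, SE 0.27) and differed by -0.06 on the other, which was dim in all groups. Grb10, an adaptor that damps insulin signaling, differed by 0.96 (adjusted p = 0.0045, SE 0.18). Plagl1, a zinc finger factor, read 5.14, 4.17 and 4.95 against 6.50, 6.75 and 6.71 and was lower (-1.90, adjusted p = 0.00282, SE 0.34). Gpc3, a marker of human HCC, was high in replicate 1 alone of those labelled WT 6 months, with 9.11, 6.19 and 5.69 against 5.31, 5.26 and 5.16 (1.76, adjusted p = 0.213, SE 0.89), and Bex1 overlapped, with 8.83, 10.89 and 3.75 against 3.58, 3.76 and 3.54 (4.19, adjusted p = 0.0842, SE 1.52). Lin28b and Spink1 differed by -0.17 and -0.21.

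In the insulin-like growth factor axis 3 of 16 genes were higher and 7 lower. The binding proteins were the largest falls. Igfbp2 read 9.41, 8.84 and 8.02 against 13.11, 13.37 and 13.05 and was 21.4-fold lower (-4.42, adjusted p = 1.92e-06, SE 0.27), Igfbp3 read 6.04, 5.73 and 5.67 against 8.52, 9.42 and 9.06 (-3.19, adjusted p = 4.04e-05, SE 0.30) and Igfbp7 differed by -2.51 (adjusted p = 4.86e-04, SE 0.34). No arrays overlapped in these 3. Igf1 itself, which the liver secretes, read 11.90, 11.56 and 11.81 against 13.23, 13.31 and 13.33 and was lower (-1.53, adjusted p = 3.11e-06, SE 0.10), as were Igfals, which stabilizes it in blood (-1.21, adjusted p = 5.75e-04, SE 0.17), and Ghr, the growth hormone receptor (-0.69, adjusted p = 0.0122, SE 0.16). Igf2r, which clears IGF2, was higher (1.07, adjusted p = 1.64e-04, SE 0.12). Igfbp5 differed by -0.02 on its brightest probe set and by -3.24 (adjusted p = 5.88e-05) on another. Igfbp1 was higher by 1.93 (adjusted p = 0.0233, SE 0.51), and not past the test without some arrays (adjusted p = 0.0596 to 0.0967 without replicate 3 of KO 6 months, or replicate 1 or 2 of WT 6 months). Ghr did not pass without replicate 3 of KO 6 months (adjusted p = 0.0522).

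Among 27 growth factors and receptors 5 were higher and 3 lower (8 by SAM and 5 in a fit of the 6 arrays alone or without replicate 3 of WT 24 months). Pdgfc and Pdgfa, ligands of the platelet-derived growth factor receptors, read 9.83, 9.30 and 8.77 against 7.20, 6.58 and 6.36 and 8.88, 9.48 and 9.33 against 7.30, 6.91 and 7.17 and were higher (2.58, adjusted p = 0.0017, SE 0.42 and 2.10, adjusted p = 3.32e-05, SE 0.19). Fgfr2 was lower at 7.06, 7.15 and 6.79 against 9.27, 9.80 and 9.89 (-2.65, adjusted p = 3.98e-06, SE 0.18). Hgf, which stellate cells make, differed by -0.84 (adjusted p = 0.00262, SE 0.15), and its receptor Met by -0.43 (adjusted p = 0.0879, SE 0.16). Egfr read 11.46, 10.36 and 10.67 against 11.51, 12.39 and 11.80 and did not pass (-1.07, adjusted p = 0.102, SE 0.41).

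Genes of DNA replication and mitosis were higher in 24 of 31 and lower in 1 (0 in a fit of the 6 arrays alone or with averaged probe sets or with dim genes left out or with the arrays centered on the housekeeping genes or without replicate 1 or 2 of WT 6 months or without replicate 1 or 3 of KO 6 months for the lower), with a median of 1.29, and 14 of the 24 stayed past the test without each array in turn. Top2a, a topoisomerase of dividing cells, read 7.59, 7.31 and 6.82 against 4.34, 4.39 and 4.13 and was higher (2.96, adjusted p = 9.38e-04, SE 0.44). Mki67, the proliferation marker, read 7.97, 8.01 and 7.52 against 5.02, 4.78 and 5.21 (2.83, adjusted p = 7.76e-04, SE 0.41) and Ccnb2, a mitotic cyclin, 7.39, 6.95 and 7.0 against 4.25, 4.57 and 4.20 (2.77, adjusted p = 2.21e-05, SE 0.24). In all 3 the lowest array labelled WT 6 months was above the highest labelled KO 6 months. Ube2c, Birc5 and Ect2, which act in anaphase and cytokinesis, differed by 2.56, 2.43 and 2.37 (adjusted p = 8.66e-05, 3.33e-05 and 2.91e-05). Cdk1, the mitotic kinase, differed by 1.56 (adjusted p = 0.00519, SE 0.31) and Mcm6, of the replication helicase, by 1.97 (adjusted p = 0.0307, SE 0.55). Pcna, Cdc20 and Foxm1 overlapped, with 0.31, -0.03 and 0.15. Bub1b, a checkpoint kinase, was the single member counted as lower, at -0.48 (adjusted p = 0.025, SE 0.13) on the probe set with the most signal, but its other 2 probe sets were higher, by 0.49 and 0.68, so that it has no settled direction. Mcm6 did not pass without replicate 1 or 3 of WT 6 months, or replicate 1, 2 or 3 of KO 6 months (adjusted p = 0.0547 to 0.0998). Bub1b did not pass without replicate 1 or 2 of WT 6 months, or replicate 1 or 3 of KO 6 months (adjusted p = 0.051 to 0.0986).

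Of 22 G1 cyclins, CDK inhibitors and p53 targets 6 were higher. Cdkn1a, p21, read 9.72, 9.90 and 7.99 against 7.05, 6.88 and 6.83 (2.29, adjusted p = 0.0117, SE 0.52) and Cdkn2c, an inhibitor of CDK4 and CDK6, read 9.39, 8.81 and 8.70 against 6.61, 6.55 and 6.73 (2.34, adjusted p = 3.69e-05, SE 0.22). Neither overlapped between the labels. Mdm2 and Ccng1, which p53 induces, differed by 0.22 and 0.41 and did not pass. Cdkn2a, which encodes p16 and p19, differed by -0.02 (adjusted p = 0.935, SE 0.11).

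Of the genes that define hepatocytes, Hnf4a, their main transcription factor, read 12.66, 12.94 and 12.71 against 12.72, 12.90 and 12.67 (0.01, adjusted p = 0.961, SE 0.10). Alb, albumin, had the highest signal of all genes, at 15.03, 15.03 and 15.10 against 15.11, 15.13 and 15.15, so that its difference has no reading here. Of 21 hepatocyte transcription factors 5 were lower (2 with the arrays centered on the housekeeping genes and 3 without replicate 2 of KO 6 months) and 1 higher (0 without replicate 1 of WT 6 months or without replicate 1, 2 or 3 of KO 6 months). Cebpa, which restrains hepatocyte growth, read 11.05, 11.40 and 11.53 against 12.34, 12.53 and 12.31 and was lower (-1.07, adjusted p = 0.00169, SE 0.17), as was Creb3l3, a factor of triglyceride clearance (-1.39, adjusted p = 0.00204, SE 0.23). Of 30 plasma proteins and apolipoproteins 9 were lower (3 with the arrays centered on the housekeeping genes or without replicate 1 of KO 6 months and 5 without replicate 2 or 3 of KO 6 months), and the list's median of -0.08 was 0.02 with the arrays centered on the housekeeping genes. Apom and Apoa5, of lipoproteins, had the largest falls, with -2.72 (adjusted p = 3.62e-04, SE 0.35) and -2.27 (adjusted p = 1.18e-04, SE 0.25). Of 18 complement genes 2 were higher (1 without replicate 1, 2 or 3 of WT 6 months or without replicate 1, 2 or 3 of KO 6 months or without replicate 1 of WT 24 months or without replicate 1, 2 or 3 of KO 24 months tumor) and 4 lower. C8b, of the membrane attack complex, differed by -1.94 (adjusted p = 6.23e-04, SE 0.27) and C9 read 12.11, 12.49 and 9.49 against 13.69, 13.66 and 13.52 and did not pass (-2.26, adjusted p = 0.0534, SE 0.72).

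The acute phase response was mixed. Of 25 genes 6 were higher (10 by SAM and 3 without replicate 3 of KO 6 months) and 1 lower (2 by SAM, in a fit of the 6 arrays alone or without replicate 2 or 3 of WT 24 months). Lcn2, lipocalin 2, had the largest rise of all genes by the probe set that stands for each, at 12.57, 13.39 and 11.80 against 6.11, 5.36 and 5.90 (6.80, adjusted p = 2.90e-05, SE 0.60), but it was also high under the label WT 24 months, at 10.71, 11.48 and 13.59. Socs3, which damps signals of interleukin 6, differed by 1.76 (adjusted p = 0.00138, SE 0.28). Saa1 and Saa2, serum amyloid A, had differences of 1.38 (adjusted p = 0.401, SE 1.01) and 1.72 (adjusted p = 0.361, SE 1.17) and did not pass, while the fibrinogen genes Fga, Fgb and Fgg overlapped at -0.11, -0.31 and -0.30. Orm2, an acid glycoprotein, read 11.04, 12.29 and 10.60 against 7.93, 7.51 and 7.67, a difference of 3.61 (adjusted p = 0.0173, SE 0.89) that was not called without some arrays (adjusted p = 0.0549 to 0.0691 without replicate 2 or 3 of KO 6 months, or replicate 2 of WT 6 months).

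Genes that interferon induces passed as higher in 2 of 24, a share near the 8.04% of all genes. The count was larger in other fits (12 by SAM or in a fit of the 6 arrays alone, 7 with the arrays centered on the housekeeping genes, 9 without replicate 2 of WT 24 months and 8 without replicate 3 of WT 24 months). The mean over the interferon list was 8.21 to 8.46 per array under the label WT 6 months and 7.39 to 7.61 under KO 6 months, but spread from 7.40 to 9.41 under WT 24 months. Ubd, a ubiquitin-like protein, read 7.35, 9.88 and 6.92 against 4.20, 3.90 and 4.16 (3.96, adjusted p = 0.0061, SE 0.80) and Usp18, which removes ISG15, 8.97, 9.54 and 11.19 against 7.28, 6.88 and 7.01 (2.84, adjusted p = 0.0101, SE 0.63). Among 21 chemokines and adhesion molecules 2 were higher (4 by SAM and 1 with the trended and robust prior or without replicate 1, 2 or 3 of WT 6 months or without replicate 1, 2 or 3 of KO 6 months or without replicate 1, 2 or 3 of KO 24 months tumor) and 2 lower (1 without replicate 3 of KO 6 months). Both counts were near the shares of all genes, 8.04% higher and 9% lower. Of the higher ones Icam1, which leukocytes bind, read 8.59, 9.11 and 8.07 against 6.43, 6.78 and 6.55 (2.0, adjusted p = 0.00608, SE 0.41). Cxcl12, made by stromal cells, was lower at 9.29, 8.55 and 8.93 against 10.90, 11.11 and 11.13 (-2.12, adjusted p = 1.10e-05, SE 0.17).

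Growth hormone holds male and female patterns of liver genes apart. In these livers of labelled males 6 of 14 male-biased genes were lower (10 by SAM and 3 without replicate 1, 2 or 3 of KO 6 months). Of 15 female-biased genes 2 were higher (4 by SAM, in a fit of the 6 arrays alone or without replicate 2 or 3 of WT 24 months). The mean over the male-biased list was 9.09 to 9.90 per array labelled WT 6 months and 11.24 to 11.67 for KO 6 months. It was 8.64 to 10.62 for WT 24 months and 11.41 to 11.81 for KO 24 months tumor, so that both wild-type labels were below both knockout labels. If WT 6 months and KO 24 months tumor were exchanged, both lower groups would be of 24 months and both higher ones of 6 months. Hsd3b5, a steroid dehydrogenase of males, read 4.88, 3.80 and 4.96 against 11.94, 9.61 and 11.03 and was lower (-6.32, adjusted p = 0.00152, SE 1.01). Under the label WT 24 months it read 8.93, 3.80 and 6.31. The major urinary protein gene Mup3 read 10.08, 10.08 and 8.23 against 14.14, 13.92 and 13.97, a difference of -4.55 (adjusted p = 0.0196, SE 1.16) that was not called without some arrays (adjusted p = 0.0556 to 0.0665 without replicate 1 or 2 or 3 of KO 6 months, or replicate 3 of WT 6 months). Of the female-biased genes Prom1, which also marks biliary and progenitor cells, read 7.93, 9.08 and 8.72 against 3.63, 4.42 and 4.51 (4.39, adjusted p = 2.16e-04, SE 0.52). Sult1e1, an estrogen sulfotransferase, overlapped, at 12.14, 10.41 and 5.70 against 5.15, 6.23 and 5.86 (3.67, adjusted p = 0.0968, SE 1.39), and Cyp2b9, Cyp3a16 and Cyp3a44, female-specific cytochrome P450 genes, differed by 0.08, -0.10 and -0.13.

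Circadian genes were lower in 3 of 18 (8 without replicate 3 of WT 6 months and 1 without replicate 3 of KO 6 months), with a median of -0.64. Nr1d1, a repressor of the clock, read 7.74, 7.89 and 8.14 against 9.56, 9.57 and 9.42 (-1.60, adjusted p = 0.0076, SE 0.34). Dbp, the clock output with a strong daily rhythm, spread widely under both labels, at 5.90, 7.23 and 11.31 against 9.03, 10.99 and 11.81, and did not pass (-2.46, adjusted p = 0.192, SE 1.19). Among 14 metallothioneins and glucocorticoid targets 4 were higher and 6 lower (3 without replicate 2 of KO 6 months). Mt2, a metallothionein, was higher by 2.58 (adjusted p = 0.011, SE 0.58), but was higher still under the label WT 24 months, at 12.71, 12.89 and 13.68. Tsc22d3 and Sgk1, which glucocorticoids induce, were lower (-1.01, adjusted p = 0.0186, SE 0.25 and -1.43, adjusted p = 0.0401, SE 0.43). Of 15 immediate early genes 3 were higher (1 without replicate 3 of KO 6 months and 5 without replicate 3 of WT 24 months) and 3 lower. Ier3, an early response gene, read 7.98, 8.87 and 7.96 against 5.08, 4.91 and 4.97 (3.28, adjusted p = 1.59e-04, SE 0.37), Dusp1, a phosphatase of MAP kinases, read 8.28, 8.34 and 7.80 against 10.18, 10.26 and 9.96 (-2.0, adjusted p = 7.80e-04, SE 0.29), and Fos overlapped at 7.89, 7.88 and 7.52 against 7.15, 9.53 and 5.71. Tsc22d3 did not pass without replicate 1 or 3 of WT 6 months, or replicate 1 or 2 of KO 6 months (adjusted p = 0.0526 to 0.0648). Sgk1 did not pass without replicate 2 or 3 of WT 6 months, or replicate 1, 2 or 3 of KO 6 months, or replicate 1, 2 or 3 of KO 24 months tumor (adjusted p = 0.0577 to 0.139).

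Genes of iron regulation were lower in 11 of 17 and higher in 3, in counts that moved with single arrays (7 with the arrays centered on the housekeeping genes or without replicate 2 of WT 6 months and 5 without replicate 2 or 3 of KO 6 months for the lower, and 1 without replicate 1 or 3 of WT 6 months or without replicate 2 of KO 6 months or without replicate 1, 2 or 3 of KO 24 months tumor for the higher). Hamp, which encodes hepcidin, the hormone that holds iron in stores, read 10.10, 12.74 and 7.49 against 14.33, 14.47 and 14.31 (-4.26, adjusted p = 0.009, SE 0.93). The 3 arrays labelled KO 6 months were close to each other and those labelled WT 6 months were below them by very different amounts. Hamp2 differed by -4.43 (adjusted p = 0.0024, SE 0.76), and the signals of such similar genes may be shared between their probes. Bmp6 and Bmp2, ligands that endothelial cells send to induce hepcidin, read 5.41, 5.01 and 6.60 against 7.09, 7.05 and 7.09 and 7.86, 7.37 and 6.92 against 9.10, 8.97 and 9.23 (-1.41, adjusted p = 0.0356, SE 0.41 and -1.72, adjusted p = 0.00106, SE 0.26). Smad7 and Atoh8, which that signal induces in hepatocytes, were lower, with -1.43 (adjusted p = 0.00833, SE 0.31) and -1.29 (adjusted p = 0.0456, SE 0.40). Id1 read 6.54, 7.05 and 5.64 against 7.75, 8.97 and 9.43, with -2.30 (adjusted p = 0.0202, SE 0.59), and did not pass without some arrays (adjusted p = 0.07 to 0.0852 without replicate 2 or 3 of KO 6 months, or replicate 3 of WT 6 months). Tfr2 was lower (-0.75, adjusted p = 5.00e-04, SE 0.10) and Hjv, the co-receptor hemojuvelin, higher (0.96, adjusted p = 0.0443, SE 0.29). Bmp6 did not pass without replicate 1 or 2 of WT 6 months, or replicate 1, 2 or 3 of KO 6 months, or replicate 1, 2 or 3 of KO 24 months tumor (adjusted p = 0.0511 to 0.134). Atoh8 did not pass without replicate 1, 2 or 3 of WT 6 months, or replicate 1, 2 or 3 of KO 6 months, or replicate 1, 2 or 3 of KO 24 months tumor (adjusted p = 0.0611 to 0.138). Hjv did not pass without replicate 1, 2 or 3 of WT 6 months, or replicate 2 or 3 of KO 6 months, or replicate 1 of WT 24 months, or replicate 1, 2 or 3 of KO 24 months tumor (adjusted p = 0.0505 to 0.149).

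Subunits of the respiratory chain and ATP synthase were lower in 15 of 26 and higher in 0 (0 by limma's p of 0.05 before adjustment, 0 by SAM), by small amounts and with a median of -0.45. The count changed with the scaling and with single arrays (2 with the arrays centered on the housekeeping genes, 7 without replicate 2 of WT 6 months and 9 without replicate 2 of KO 6 months), whereas the median stayed between -0.51 and -0.35. Sdhb, the iron-sulfur subunit of succinate dehydrogenase, had the largest difference, at 12.06, 11.38 and 11.82 against 13.12, 13.08 and 13.15 (-1.36, adjusted p = 6.31e-04, SE 0.19). It is followed by Ndufs1 of complex I (-0.76, adjusted p = 0.00562, SE 0.15) and Cox6c of complex IV (-0.75, adjusted p = 0.00133, SE 0.12). In these 3 genes the labels did not overlap.

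Markers of sinusoidal and vascular endothelial cells were lower in 20 of 26 genes and higher in 0 (0 by limma's p of 0.05 before adjustment, 0 by SAM), with a median of -1.54. The mean over the list was 6.26 to 6.91 per array labelled WT 6 months, 7.99 to 8.12 for KO 6 months, 7.63 to 8.46 for WT 24 months and 7.93 to 8.07 for KO 24 months tumor. Kdr, the main VEGF receptor, read 7.54, 6.78 and 7.52 against 9.03, 9.09 and 9.21 (-1.83, adjusted p = 7.77e-05, SE 0.19) and Tek, the receptor of angiopoietins, 5.45, 4.31 and 5.08 against 7.32, 7.13 and 7.10 (-2.24, adjusted p = 0.00133, SE 0.35). Clec4g, a lectin of sinusoids, read 7.89, 6.89 and 7.78 against 9.95, 9.92 and 9.95 (-2.42, adjusted p = 3.44e-05, SE 0.22), and Ehd3 and Ptprb differed by -2.75 and -2.60. Replicate 2 labelled WT 6 months was the lowest in Kdr, Tek and Clec4g. Lyve1, a marker of sinusoids and of lymph vessels, overlapped, at 6.42, 5.35 and 6.56 against 5.06, 6.62 and 7.16 (-0.17, adjusted p = 0.928, SE 0.96), and Cdh5, of the junctions between these cells, differed by -1.04 (adjusted p = 0.073, SE 0.36). Rspo3, Wnt2 and Bmp2 are on this list too, so that their falls are counted among those of the list. The part of the endothelial markers in the falls of these signals was not tested.

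Markers of stellate cells and matrix were lower in 17 of 26 and higher in 1, with means of 6.43 to 7.06 per array labelled WT 6 months and 7.94 to 8.06 for KO 6 months. Colec10 and Colec11, lectins of these cells, differed by -3.41 (adjusted p = 2.82e-05, SE 0.30) and -2.38 (adjusted p = 1.99e-04, SE 0.28). Dcn, decorin, read 9.55, 8.08 and 8.43 against 11.63, 11.67 and 11.68 (-2.97, adjusted p = 6.77e-05, SE 0.30), and Reln, reelin, read 8.78, 7.32 and 7.85 against 10.45, 10.29 and 10.28 (-2.36, adjusted p = 2.18e-04, SE 0.28). Pdgfrb, the receptor that defines the cells, read 6.47, 5.56 and 6.26 against 7.81, 7.71 and 7.29 (-1.51, adjusted p = 0.00717, SE 0.31) and Des, desmin, 6.54, 6.45 and 6.56 against 7.16, 7.23 and 7.06 (-0.64, adjusted p = 4.79e-04, SE 0.09). Here replicate 1 labelled WT 6 months was the highest of its group in Dcn and Reln. The genes of activated cells did not pass, with Col1a1 at 5.78, 5.43 and 5.95 against 5.43, 5.42 and 5.56 (0.25, adjusted p = 0.379, SE 0.18), Acta2 at -0.35 (adjusted p = 0.348, SE 0.23) and Lox at 0.02 (adjusted p = 0.957, SE 0.16). Lrat, of retinoid storage, overlapped, at 3.74, 3.93 and 4.69 against 6.76, 3.76 and 5.81. Timp1, the single member that was higher, differed by 0.49 with an adjusted p of 0.0429. Timp1 did not pass without replicate 1 or 2 of WT 6 months, or replicate 1, 2 or 3 of KO 6 months, or replicate 1 of WT 24 months, or replicate 1 or 2 of KO 24 months tumor (adjusted p = 0.0519 to 0.143). With dim genes left out there were 0 members higher and without WT 24 months replicate 3 there were 2.

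**Figure D4:**
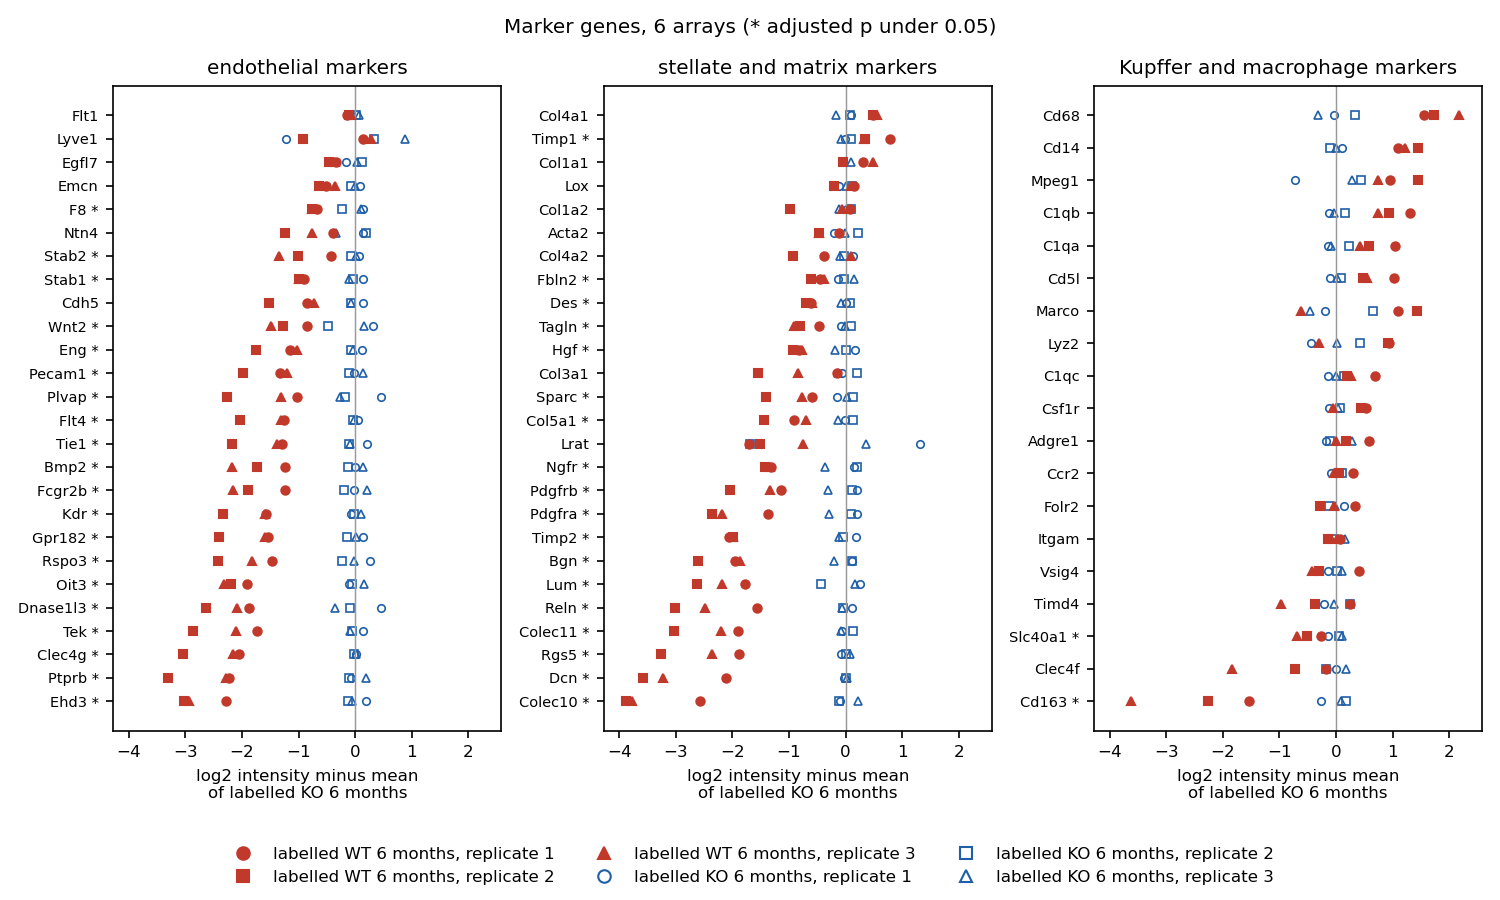
Log2 intensity of each of the 6 arrays minus the mean of the arrays labelled KO 6 months (horizontal axes) for markers of endothelial cells, stellate cells and matrix, and Kupffer cells and macrophages (vertical axes), drawn as filled red symbols for WT 6 months and open blue ones for KO 6 months. In the first panels 20 and 17 genes lie to the left with an asterisk, for an adjusted p under 0.05, and the macrophage markers lie on both sides.

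Kupffer cell and macrophage markers had few members past the test. Of 19, 0 were higher (2 by limma's p of 0.05 before adjustment, 6 by SAM, and 5 in a fit of the 6 arrays alone or without replicate 3 of WT 24 months and 1 with the arrays centered on the housekeeping genes or without replicate 1 of WT 24 months) and 2 lower (1 with the arrays centered on the housekeeping genes or without replicate 1 of KO 6 months and 0 without replicate 2 or 3 of WT 6 months or without replicate 2 or 3 of KO 6 months). Their mean was 7.80 to 8.46 per array labelled WT 6 months and 7.77 to 8.06 for KO 6 months, against 8.0 to 10.80 for WT 24 months. The lower ones were Cd163, with the largest fall of the list (-2.47), and Slc40a1. Cd163 did not pass without replicate 2 or 3 of WT 6 months, or replicate 1, 2 or 3 of KO 6 months (adjusted p = 0.0528 to 0.0835). Slc40a1 did not pass without replicate 2 or 3 of WT 6 months, or replicate 2 or 3 of KO 6 months (adjusted p = 0.0717 to 0.0879). Cd68, of lysosomes, read 7.81, 8.0 and 8.44 against 6.23, 6.60 and 5.95 and did not pass (1.82, adjusted p = 0.153, SE 0.81), though the labels did not overlap, while Adgre1, the F4/80 antigen, differed by 0.26 (adjusted p = 0.826, SE 0.62). Clec4f, which defines Kupffer cells, read 9.05, 8.51 and 7.39 against 9.24, 9.05 and 9.41 (-0.91, adjusted p = 0.355, SE 0.61). None of 11 neutrophil markers passed (2 by limma's p of 0.05 before adjustment, 2 by SAM higher, 1 without replicate 2 of WT 6 months or without replicate 2 of KO 24 months tumor higher, and 0 by limma's p of 0.05 before adjustment, 0 by SAM lower), and S100a8 was high in the arrays labelled WT 6 months to different degrees, at 10, 6.13 and 7.37 against 5.46, 5.60 and 5.50 (2.32, adjusted p = 0.116, SE 0.93). The markers of T and NK cells had means of 4.94 to 5.30 per array labelled WT 6 months and 5.27 to 5.38 for KO 6 months, with Cd3e at 0.05 and 1 of 15, Zap70, lower (-1.99, adjusted p = 4.60e-04, SE 0.26, and 2 without replicate 3 of WT 24 months). Of 12 B and plasma cell markers Ighm, the heavy chain of IgM, was counted as higher (2.85, adjusted p = 0.0376, SE 0.84) with overlapping arrays and Cd79a as lower (-0.51, adjusted p = 0.0236, SE 0.13). Ighm did not pass without replicate 1 or 3 of WT 6 months, or replicate 1, 2 or 3 of KO 6 months, or replicate 1, 2 or 3 of KO 24 months tumor (adjusted p = 0.0542 to 0.122). Cd79a did not pass without replicate 1 or 2 of WT 6 months, or replicate 2 or 3 of KO 6 months (adjusted p = 0.0754 to 0.093). Neither passed in a fit of the 6 arrays alone.

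Of 13 biliary and progenitor markers 3 were higher and 2 lower (1 with dim genes left out or with the arrays centered on the housekeeping genes for the lower). The higher ones beside Prom1 were the keratins that hepatocytes also make, Krt8 at 12.88, 13.44 and 13.34 against 12.03, 11.62 and 11.49 (1.51, adjusted p = 6.37e-04, SE 0.21) and Krt18 at 12.83, 13.27 and 13.20 against 12.06, 11.96 and 11.69 (1.19, adjusted p = 4.44e-04, SE 0.16). Krt19 and Sox9, which define bile duct cells, overlapped at 0.98 and -0.33, and Krt7 and Krt23 were lower (-0.49, adjusted p = 0.00947, SE 0.11 and -1.38, adjusted p = 0.00361, SE 0.25). Of markers of blood cells and of tissue next to the liver, the mesothelial genes Upk3b and Msln were lower (-2.04, adjusted p = 3.98e-07, SE 0.10 and -0.87, adjusted p = 0.00965, SE 0.19), and those of pancreas, fat and muscle differed by -0.15 (Cpa1), -0.15 (Adipoq) and -0.03 (Ckm).

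Partners of IQGAP2 in the cytoskeleton did not pass, with none of 11 past limma's test (1 by limma's p of 0.05 before adjustment, 1 by SAM higher, the same numbers lower, and 1 in a fit of the 6 arrays alone or with averaged probe sets or with the arrays centered on the housekeeping genes or without replicate 1 or 3 of WT 24 months higher, and 1 without replicate 3 of WT 24 months lower). Iqgap1, the related scaffold, read 9.02, 9.17 and 9.26 against 7.97, 8.12 and 7.96 (1.13, adjusted p = 0.102, SE 0.44), with 7.98, 8.53 and 10.35 under the label WT 24 months, and Iqgap3 differed by -0.05 (adjusted p = 0.788, SE 0.10). Rac1 and Cdc42 differed by -0.29 and 0.20. Of 20 genes of cell junctions 4 were higher (1 with the arrays centered on the housekeeping genes or without replicate 1 or 3 of KO 6 months and 2 without replicate 1, 2 or 3 of WT 6 months or without replicate 2 of KO 6 months) and 5 lower (2 with the arrays centered on the housekeeping genes or without replicate 3 of KO 6 months and 3 without replicate 1, 2 or 3 of WT 6 months or without replicate 1 or 2 of KO 6 months or without replicate 2 of KO 24 months tumor), of which Cldn2 (1.75, adjusted p = 2.57e-04, SE 0.21), a claudin of the central zone, was the clearest rise and Cdh1 the clearest fall. Gjb1, the connexin of hepatocytes, differed by -0.19 (adjusted p = 0.466, SE 0.16).

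Some of the largest differences belonged to no list. Duoxa1, the maturation factor of an enzyme that makes hydrogen peroxide, read 10.28, 11.52 and 12.30 against 6.02, 6.32 and 6.17 (5.20, adjusted p = 5.92e-06, SE 0.37). Adgrg2, an adhesion receptor coupled to G proteins, read 9.39, 10.17 and 6.79 against 4.12, 4.07 and 4.0 (4.72, adjusted p = 4.16e-04, SE 0.62), Sbspon 7.62, 8.10 and 10.11 against 3.94, 3.96 and 4.24 (4.56, adjusted p = 7.94e-05, SE 0.47) and Calml4 11.09, 7.44 and 10.96 against 5.89, 5.14 and 5.58 (4.30, adjusted p = 0.00795, SE 0.92). The 3 arrays labelled WT 6 months were unequal in these genes, all of them above KO 6 months. Among the falls, Aspg, an asparaginase, read 5.03, 5.64 and 5.06 against 10.83, 11.07 and 10.74 (-5.63, adjusted p = 1.18e-07, SE 0.22), Bdh2, a hydroxybutyrate dehydrogenase, 4.39, 4.40 and 4.37 against 8.86, 9.43 and 9.33 (-4.82, adjusted p = 1.43e-08, SE 0.15) and Myom2, a protein of the sarcomere, 4.47, 4.23 and 4.14 against 9.52, 9.45 and 9.40 (-5.17, adjusted p = 5.31e-06, SE 0.36). There the arrays of a label were close to each other.

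The mice under the label WT 6 months differed among themselves. The SD over the 3 arrays was above 1 for 165 genes (0.907%) under this label and for 25 (0.137%) under KO 6 months, compared with 528 under WT 24 months and 12 under KO 24 months tumor. Kyat3, a kynurenine aminotransferase, read 6.21, 12.04 and 5.35 against 11.49, 11.62 and 11.45, so that replicate 2 was at the level of KO 6 months and the other two were far below. Cldn16, a claudin of the kidney, was high in replicate 2 alone, at 4.35, 9.36 and 4.44. Egfl6 and Slc7a9 were high in replicates 1 and 2, at 8.32, 8.19 and 3.80 and 9.06, 8.29 and 4.17, and at 3.71, 3.47 and 3.62 and 3.91, 3.99 and 3.87 under KO 6 months. Sult2a2, a sulfotransferase, read 11.11, 6.61 and 4.31, and Cyp4a14, a fatty acid hydroxylase, 5.56, 10.83 and 11.34. Under KO 6 months the widest were Ccnb1ip1 at 7.30, 3.71 and 4.05 and Dio1, which activates thyroid hormone, at 10.83, 8.28 and 6.94.

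Whole chromosomes differed between the labels. Over genes with a mean above 6, the median difference of chromosome 4 was -0.26 (636 genes), and the 3 arrays labelled WT 6 months were at -0.25, -0.24 and -0.26 against the mean of KO 6 months. By the adjusted p 206 of its 1087 genes tested (19%) were lower, against 9% of all genes, and 38 (3.5%) higher. Chromosome 5 was at -0.13, with -0.17, -0.16 and -0.09 by array. The X chromosome had a median of 0.31, with 0.21, 0.68 and 0.06 by array and 0.13 without replicate 2. The median of chromosome 2 was 0.24 in replicate 3 alone (0.05 and 0.02 in the others) and that of chromosome 12 was 0.29 in replicate 1 alone (0.05 and 0.01). Replicate 1 was also at -0.20 on chromosome 14 and -0.16 on chromosome 15. Medians of the 9 other arrays stayed between -0.11 and 0.09 on every chromosome. In each of 4 equal stretches of chromosome 4 by gene order the arrays labelled WT 6 months were between -0.36 and -0.15. The part of these shifts in the differences of single genes was not tested.

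**Figure D5:**
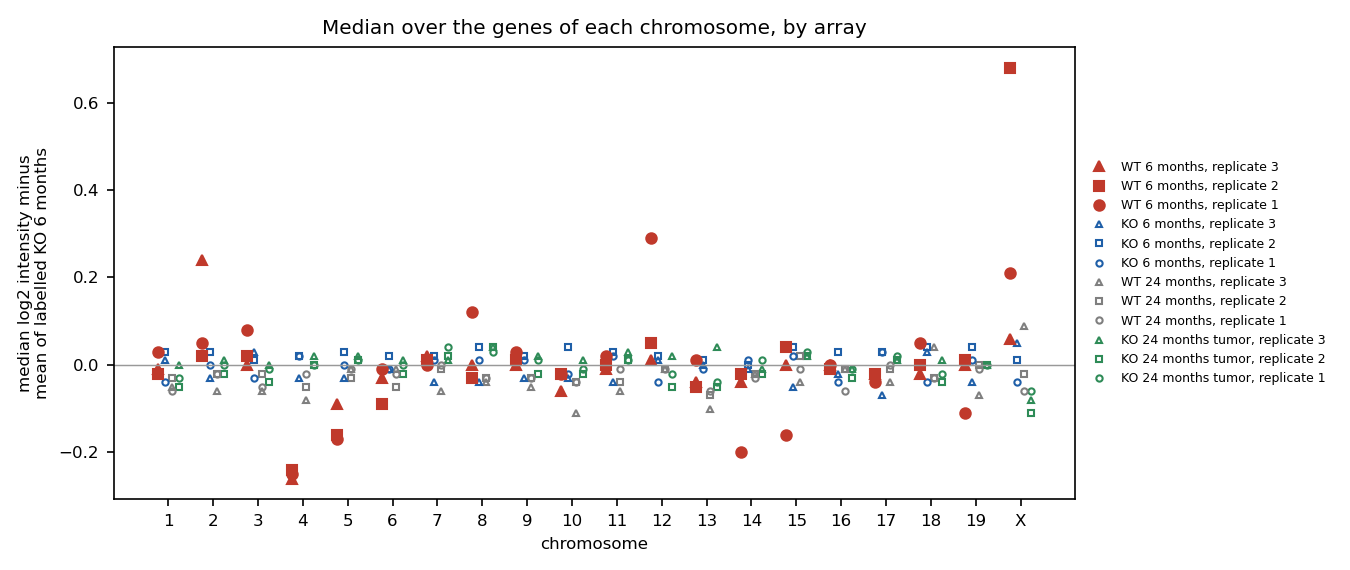
Median over the genes of each chromosome of the log2 intensity minus the mean of the arrays labelled KO 6 months (vertical axis), by chromosome (horizontal axis), for each of the 12 arrays. Over all chromosomes the other arrays lie between -0.11 and 0.09. The filled red symbols of WT 6 months leave this band with all 3 arrays on chromosome 4. They do so with 2 arrays on chromosomes 5 and X, up to 0.68, and with 1 array on chromosomes 2, 8, 12, 14 and 15. On chromosome 5 all 3 lie below the other arrays of that chromosome.

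The labelled difference between wild type and knockout was itself compared between the ages. It differed between 6 and 24 months for 879 genes (4.83%), of which 816 had passed and 314 been called at 6 months. That is the reading of the labels as deposited. With WT 6 months and KO 24 months tumor exchanged, the same term sets the change of knockouts from 6-month liver to 24-month tumor against the change of wild types with age. The 6-month arrays share no sample with the 24-month ones, but the term contains the 6-month difference itself. Its overlap with the genes passed or called at 6 months is thus largely built in. Of all 18194 genes, 3100 had passed and 476 been called. Plat, the tissue plasminogen activator, read 8.36, 8.34 and 8.14 against 4.59, 4.64 and 4.84 at 6 months and 4.44, 4.69 and 4.69 against 4.53, 4.49 and 4.63 at 24 months. Col8a1, a collagen of vessel walls, read 10.04, 10.01 and 9.43 against 6.30, 6.26 and 6.18 at 6 months and 5.81, 5.81 and 6.08 against 6.18, 6.38 and 6.29 at 24 months. In both genes the arrays labelled WT 6 months stood alone above the other 9.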

How the data were processed

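Total RNA of 12 livers (4 labelled groups of 3 male mice, 1 array per mouse) was hybridised by the authors to Affymetrix mouse genome arrays. Per the labels, the deposited values are log2 intensities made by the authors with RMA in R (simpleaffy) from GCOS files, with versions not given in the sources used here. Of 45101 probe sets, 34958 name 1 gene in GEO's platform annotation, 932 several and 9211 none. No gene was named from a probe set with several. For each of the 18194 genes the probe set of highest mean was used, a choice that can move a gene whose probe sets disagree. Array medians were 5.41 to 5.45, and the number of arrays limits the precision.

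Labels gave the groups. limma 3.58.1 (R 4.3.3) was fitted to the 4 group means of all 12 arrays, with Benjamini-Hochberg adjustment over all genes, and the fit was checked on simulated data. Called means a fold of at least 3 and an adjusted p of at most 0.05. Alternatives were SAM with 20 relabellings, as the study's methods use, the 6 arrays alone, replicate number as a block, other summaries of probe sets, dim genes left out, a trended and robust prior, centering on the median or on the 4 measured housekeeping genes of the study's PCR array (Actb, Gapdh, Gusb and Hprt), a fold of 2, and leaving out each array. Chromosome medians under other settings were added after seeing the data. Chromosomes and promoters came from RefSeq. P-values measure the spread between these arrays.

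Members and gene lists were chosen with earlier results of these data known. Named genes are Iqgap2 and Afp, the 15 largest rises and 15 largest falls, up to 5 passed members of a list and up to 2 of the opposite direction, members that define a list's role, and the 10 genes with the largest SD in a group. Not all of these are printed, and further members were named for their role after their values were seen.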

Additional observations from a re-analysis of the deposited data

Results flagged for a closer look

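The labelled difference between wild type and knockout differed between 6 and 24 months, by a limma interaction term and an adjusted p under 0.05, for 879 genes, of which 314 were called between the 6-month labels. The term contains the 6-month difference itself, so that this overlap is largely built in. With WT 6 months and KO 24 months tumor exchanged as labels, the term compares the change with age, into tumor in the knockouts, between knockouts and wild types. The 3 genes with the smallest adjusted p of this term were Plat (3.54 on the log2 scale), Nkd1 (5.14) and Col8a1 (3.96), and each was high in the arrays labelled WT 6 months alone.

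Probe sets outside the gene comparison also passed its thresholds. Of 9160 probe sets with no listed gene, 88 were called, 60 higher and 28 lower, and of 932 that name several genes 14 were called, 10 higher and 4 lower. The 51 control probe sets held no call.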

How the results depend on the processing

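The counts called, 258 higher and 218 lower, were within 1.5 times under SAM, the 6 arrays alone, the trended and robust prior, dim genes left out, both centerings and averaged probe sets. With every probe set counted 396 were called higher, and a fold of 2 called 544 higher and 453 lower. By the adjusted p alone, 1463 higher and 1637 lower became 2367 and 2546 with every probe set and 2330 and 2997 by SAM. With the arrays centered on the housekeeping genes, which moved the median of all genes by 0.1, 738 were lower, and the share of higher ones among those past the adjusted p went from 47.2% to 66.9% and among those called from 54.2% to 61.1%. Without 1 array in turn, 239 to 276 were called higher and 201 to 236 lower, and 963 to 1740 passed as higher and 1096 to 1928 as lower, the fewest higher without KO 6 months replicate 3. Of the 476 called genes, 424 stayed past the adjusted p without each array in turn. Bub1b reversed to 0.23 (adjusted p = 0.0777) with the mean of its probe sets, since 2 of its probe sets oppose the brightest. Of 1920 list counts under alternatives, 249 moved by over 1.5 times. Other causes were not tested.

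Same-numbered arrays did not deviate together (r of 0.004, 0.127 and 0.033), so that the labels share only a number. With replicate number as a block 257 were called higher and 219 lower, and 1372 and 1482 passed the adjusted p. The median of chromosome 4, with alternatives chosen after seeing the data, was between -0.30 and -0.15.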
